A study of Caenorhabditis elegans with 6 samples.

Results

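The 6 genes *F21A3.11*, *F21C10.10*, *Y43F8C.3*, *sdz-24*, *Y57G11B.5* and *ZK105.1* are little-characterized protein-coding genes of *Caenorhabditis elegans*. They were picked from a table of 85 genes because their levels in *hlh-11* knockout (KO) worms and in *hlh-11* overexpression (OE) worms lay at least 1 log2 unit, a 2-fold difference, on opposite sides of the wild-type level. The levels used were group means of log2(RPKM + 0.5). RPKM is the number of reads of a gene scaled to the length of the gene in kilobases and to the size of the library. The values below therefore chose the genes, and they are given as a description with no test. In all, 13 of the 85 genes (15.3%) met this fold rule, and the 6 described here are part of those 13.

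The study sequenced polyadenylated RNA from pools of synchronized young adult worms, with 2 libraries for each of 3 genotypes. *hlh-11* KO worms carry a CRISPR/Cas9 allele, made in the study, that shifts the reading frame in an exon common to all *hlh-11* transcripts. *hlh-11* OE worms overexpress *hlh-11*, and the transgene and promoter of the sequenced OE strain are not given in the sources used here. Wild-type worms were of strain N2, the strain that the labels give for every group, and all groups grew on plates with *E. coli* OP50. RNA came from whole worms, so fewer cells of a type and less RNA per cell cannot be told apart in any value. Whether the libraries of a genotype came from separate cultures is not given either, so the spread between them may be technical. The level of *hlh-11* itself was not analysed here.

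HLH-11 is a basic helix-loop-helix transcription factor, a class of proteins that bind DNA as dimers at short E-box sequences. It is found in nuclei of the intestine, the nervous system and the excretory cell, and the intestine is the main digestive and fat-storing organ of the worm. A gene that such a factor represses would be higher without it and lower with more of it, and a gene that it activates would do the reverse. The genes of the table were selected for contrary KO and OE differences, so each had to follow the first pattern or the reverse. The values below describe which pattern each gene follows, and they cannot answer whether HLH-11 controls it. A steady-state RNA level also does not separate direct from indirect control.

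Of the 6 genes, 5 have no name beyond that of the genomic clone on which they were found. The exception, *sdz-24*, belongs to the genes named for zygotic transcripts that depend on SKN-1, a transcription factor of early gut specification and of the response to oxidative stress. *F21C10.10* stands among the feeding response genes of the RNAi library that was screened in the study. No function is described here for *F21A3.11*, *Y43F8C.3*, *Y57G11B.5* or *ZK105.1*. The table holds 25 genes known only by a sequence name. Of those 25, 5 met the fold rule, and all 5 are among the 6 genes.

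The 6 genes lie apart from each other in the genome. All coordinates are those of WBcel235, the assembly to which the reads were aligned. *F21A3.11* (WBGene00219316) lies on chromosome V from 15530783 to 15533212 on the minus strand and has 8 exons. *F21C10.10* (WBGene00017659) lies on chromosome V from 9096267 to 9097220 on the plus strand, with 4 exons. *Y43F8C.3* (WBGene00012825) is on the minus strand of chromosome V from 19614506 to 19622626. It is the longest of the 6, with 7 exons, and introns make up 67.0% of its span of 8121 bases. *sdz-24* (WBGene00019495) lies on the plus strand of chromosome II from 658669 to 659846. It has 2 annotated transcripts, where the other 5 genes have 1, and its longest transcript has 6 exons. *Y57G11B.5* (WBGene00013297) is found on the plus strand of chromosome IV from 14574819 to 14576580, and *ZK105.1* (WBGene00022653) on the plus strand of chromosome V from 7713991 to 7714698. Each of these last genes has 3 exons.

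**Figure D1:**
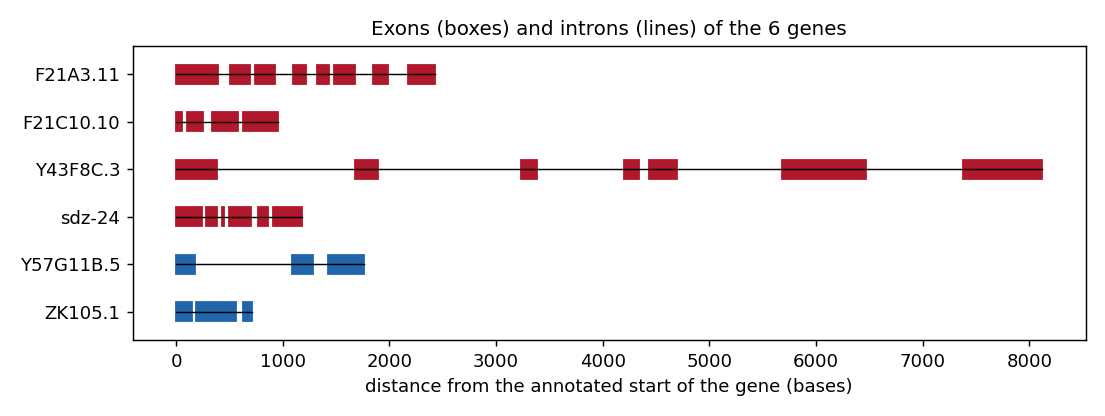
Gene models of the 6 genes, drawn to scale from the WBcel235 annotation, with exons as boxes, introns as lines and the distance from the annotated start of the gene in bases on the x axis. Red marks the 4 genes that were higher in *hlh-11* KO worms and blue the 2 that were lower; *Y43F8C.3* spans 8121 bases and *ZK105.1* spans 708 bases.

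Chromosome V holds 4 of the 6 genes (66.7%), against 23 of the 84 protein-coding genes of the table (27.4%) and 4994 of all 19985 protein-coding genes. They do not form a cluster, since the closest gene of the table is between 62366 bases away (*col-144*, from *F21C10.10*) and 4081294 bases away (*F21A3.11*, from *Y43F8C.3*). The predicted proteins have 496 residues for *F21A3.11*, 226 for *F21C10.10*, 612 for *Y43F8C.3*, 236 for *sdz-24*, 225 for *Y57G11B.5* and 186 for *ZK105.1*. Their median is 231 residues, against 303 in the table and 329 over all protein-coding genes.

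The 4 genes that were higher in KO each share a few bases with a protein-coding gene of the opposite strand, while *Y57G11B.5* and *ZK105.1* overlap no protein-coding gene. *F21A3.11* shares 2 bases with *srh-276*, *F21C10.10* shares 20 with *F21C10.9*, *Y43F8C.3* shares 29 with *nlp-26* and *sdz-24* shares 19 with *sri-45*, all of them exonic in both genes. Such an overlap with a protein-coding gene of the other strand is annotated for 22.6% of the table's protein-coding genes and for 21.6% of all of them. Whether reads were counted by strand is not given, so reads from these short stretches cannot be assigned to a strand. An annotated pseudogene and a piRNA lie on the opposite strand within the span of *Y57G11B.5* and share no exonic base with it.

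The RPKM values were whole multiples of 1 read, which gave the reads behind each value. The recovered library totals were between 16538554 and 24023096 reads, and the 6 genes held between 17 and 3614 reads per library. Each value thus rests on a count whose 95% exact Poisson interval is known, and these intervals cover counting error only. The length that the values imply was within 10% of the annotated exon length for 5 of the genes. For *F21C10.10* it was 1040 bases, 1.34 times the annotated 776 bases. Its RPKM would be higher, equally in all libraries, if the same reads were set to the annotated length. How many of its reads lie outside the present annotation is not known.

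In *hlh-11* KO worms, *F21A3.11*, *F21C10.10*, *Y43F8C.3* and *sdz-24* were 2.70 to 5.32 times as high as in the wild type, and *Y57G11B.5* and *ZK105.1* were at 0.406 and 0.470 of it. In *hlh-11* OE worms the first 4 genes were at 0.175 to 0.308 of the wild-type mean, and the other two were at 2.27 and 2.07 times it. For all 6 genes, both KO libraries and both OE libraries lay outside the range of the 2 wild-type libraries, on opposite sides. The same absence of overlap was found in 98.8% of the table's genes for KO and in 98.8% for OE, and in all 85 genes the KO and OE means deviated from the wild type in contrary directions, which is how the deposited table was selected. The size of the differences is what the rule used, and it does not separate the 6 from the other 7 genes past the rule: the smaller of the 2 absolute log2 differences was 1.05 to 1.94 in the 6 genes and 1.08 to 3.43 in those 7.

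**Figure D2:**
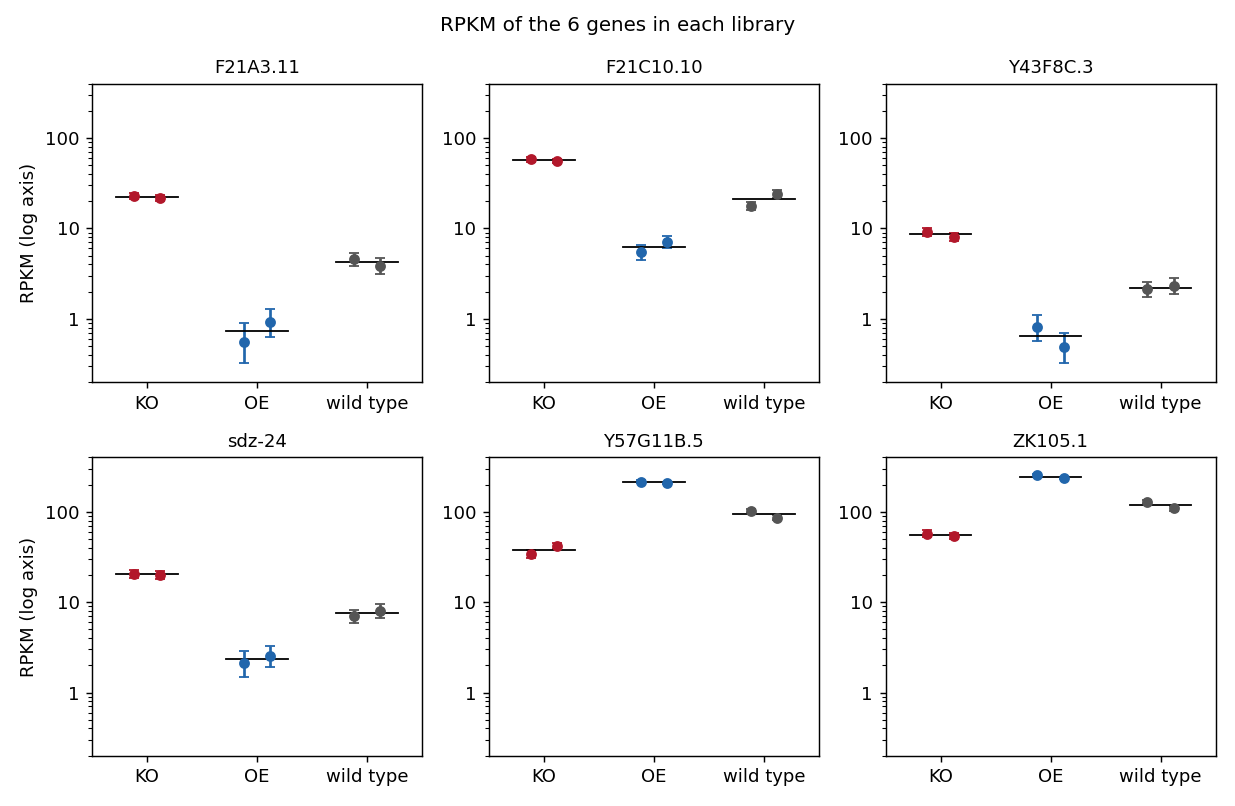
RPKM of each of the 6 genes (log axis) in the KO, OE and wild-type libraries, with 1 point per library, the 95% exact Poisson interval of its reads as the bar and the mean of the 2 libraries as the black line. *F21A3.11* spans the widest range, between 0.734 RPKM on average in OE and 22.3 RPKM in KO, and no gene has a KO or OE library within the range of its wild-type libraries.

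*F21A3.11* showed the widest response of the 6. It had 22.8 and 21.9 RPKM in the KO libraries and 0.557 and 0.912 RPKM in the OE libraries, against 4.53 and 3.86 RPKM in the wild-type libraries. The KO mean of 22.3 ± 0.636 RPKM was 5.32 ± 0.620 times the wild-type mean of 4.20 ± 0.475 RPKM, and the OE mean of 0.734 ± 0.251 RPKM was 0.175 ± 0.0631 of it (SD, n = 2 each). The 2 KO libraries were nearly equal and stood well above the rest, while the OE libraries were low and uneven. The OE values rest on 17 and 35 reads, with intervals of 0.324 to 0.891 RPKM and 0.635 to 1.27 RPKM that overlap each other. Both intervals lie below the intervals of the wild-type libraries, of which the lower limits were 3.85 and 3.15 RPKM. Between KO and OE the mean level differed by 30.4 ± 10.4 times.

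*F21C10.10* was the most abundant of the 4 genes that were higher in KO. Its values were 58.4 and 55.8 RPKM in the KO libraries and 5.48 and 7.09 RPKM in the OE libraries, against 17.8 and 24.1 RPKM in the wild-type libraries. The KO mean of 57.1 ± 1.81 RPKM was 2.73 ± 0.593 times the wild-type mean of 20.9 ± 4.51 RPKM (SD, n = 2 each). The OE mean was 6.28 ± 1.13 RPKM, or 0.300 ± 0.0842 of the wild type. Here the wild-type libraries differed most, by 4.38 times the counting error of their ratio, and the error of the KO ratio comes largely from them. The nearest libraries still differed by 2.31 times between KO and wild type and by 2.51 times between OE and wild type.

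*sdz-24* had nearly the same ratios as *F21C10.10* at a lower level. It was at 20.5 and 20.1 RPKM in the KO libraries and at 2.10 and 2.54 RPKM in the OE libraries, against 7.05 and 8.03 RPKM in the wild-type libraries. The mean was 2.70 ± 0.25 times the wild type in KO and 0.308 ± 0.0507 of it in OE (SD of the ratio, n = 2 each). Its replicates agreed within sampling noise in every genotype, with gaps of 0.241 to 1.07 counting errors. The reads were 339 and 363 in KO, 38 and 58 in OE and 146 and 126 in the wild type.

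*Y43F8C.3* had the lowest wild-type level of the 85 genes. Its values were 9.16 and 8.04 RPKM in the KO libraries and 0.805 and 0.489 RPKM in the OE libraries, against 2.13 and 2.30 RPKM in the wild-type libraries. The KO mean of 8.60 ± 0.794 RPKM was 3.88 ± 0.414 times the wild-type mean of 2.22 ± 0.119 RPKM, and the OE mean of 0.647 ± 0.224 RPKM was 0.292 ± 0.102 of it (SD, n = 2 each). The 2 OE libraries differed by 1.65 times, from 38 and 29 reads. That gap was 2.02 times its counting error, so the OE value is the least certain of this gene. Even so, the upper limit of the higher OE library was 1.10 RPKM, below the lower limits of 1.76 and 1.86 RPKM in the wild type.

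*Y57G11B.5* went the other way and had many reads throughout. It had 34.1 and 42.0 RPKM in the KO libraries and 216 and 209 RPKM in the OE libraries, against 101 and 86.2 RPKM in the wild-type libraries. The KO mean of 38.0 ± 5.61 RPKM was 0.406 ± 0.0757 of the wild-type mean of 93.7 ± 10.7 RPKM, and the OE mean of 212.5 ± 5.04 RPKM was 2.27 ± 0.265 times it (SD, n = 2 each). The KO libraries differed by 1.23 times and the wild-type libraries by 1.18 times, which was 3.27 and 4.05 times the counting error. In both of these genotypes the spread between libraries was thus well above the counting error, while the gap of the OE libraries was 1.36 times it.

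*ZK105.1*, the most abundant of the 6 in OE and in the wild type, was the closest to the 2-fold limit. It was at 57.4 and 54.0 RPKM in the KO libraries and at 253 and 237 RPKM in the OE libraries, against 128 and 109 RPKM in the wild-type libraries. The KO mean was 0.470 ± 0.0585 of the wild type and the OE mean was 2.07 ± 0.258 times it (SD of the ratio, n = 2 each). The groups did not overlap, and the nearest libraries differed by 1.89 times between KO and wild type and by 1.85 times between OE and wild type. The gap between the wild-type libraries was 4.26 times its counting error. In OE the gap was 2.58 times that error, and in KO it was 1.1 times.

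On the log2(RPKM + 0.5) scale of the rule, *F21A3.11* differed from the wild type by 2.28 in KO and by -1.94 in OE. In the same order the differences were 1.44 and -1.65 for *F21C10.10*, 1.74 and -1.26 for *Y43F8C.3* and 1.38 and -1.51 for *sdz-24*. For *Y57G11B.5* they were -1.29 and 1.18, and for *ZK105.1* they were -1.08 and 1.05. The pooled SD between libraries over the 85 genes was 0.157 on this scale, which as a pooled value gives each difference a standard error of 0.157. From the libraries of each gene alone, the standard errors were 0.0888 for *sdz-24* to 0.218 for *F21C10.10* in KO and 0.119 for *Y57G11B.5* to 0.276 for *F21C10.10* in OE, where *F21A3.11* had 0.233 and *Y43F8C.3* had 0.205. A difference of at least 1 from the wild type was present in 27.1% of the table's genes for KO and in 20.0% for OE. Of the 13 genes past the rule, 8 were higher in KO and lower in OE (9.41% of the table) and 5 were the reverse (5.88%), and the 6 genes hold 4 and 2 of them. Just inside the limit, the smaller of the 2 absolute differences was 1.05 for *ZK105.1* and 1.08 for the collagen gene *col-150*. Just outside, it was 0.985 for the non-coding RNA gene *tts-1* and 0.982 for the C-type lectin gene *clec-85*.

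**Figure D3:**
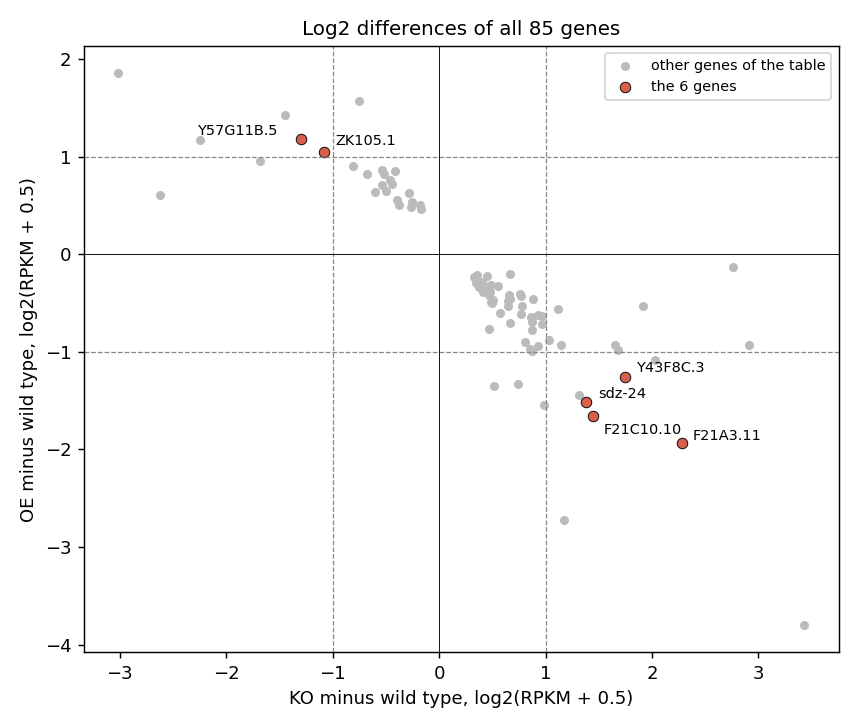
KO minus wild type (x axis) against OE minus wild type (y axis) for all 85 genes, both in log2(RPKM + 0.5) units, with the 6 genes in red and dashed lines at 1 and -1. The 2 axes share the wild-type libraries, and every gene lies in the upper left or the lower right part because the table was selected so; *F21A3.11* stands farthest out of the 6, at 2.28 and -1.94.

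The KO and OE differences of a gene share the wild-type libraries, and in most of the 6 genes they were close in size with the deposited scaling. Their sum, which is 0 for equal and opposite differences, was -0.03 for *ZK105.1*, -0.11 for *Y57G11B.5*, -0.14 for *sdz-24* and -0.21 for *F21C10.10*. It was 0.34 for *F21A3.11* and 0.48 for *Y43F8C.3*, where KO was the larger side. These last genes have the lowest OE levels, so that the added 0.5 RPKM weighs most on their OE side. With no pseudocount the OE difference became -2.55 for *F21A3.11* and -1.82 for *Y43F8C.3*, with sums of -0.14 and 0.13, so for *F21A3.11* the larger side turned to OE. With no pseudocount, the sums of the other genes were between -0.27 and -0.03. Each difference has a pooled standard error of 0.157. The standard error of a sum is larger, since both differences carry the error of the same wild-type mean. These sums therefore do not settle which side is larger. The balance also depends on the scaling of the libraries. With median scaling the differences were 0.84 and -1.30 for *F21C10.10*, less equal than above, and 1.70 and -1.74 for *F21A3.11*, more equal.

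**Figure D4:**
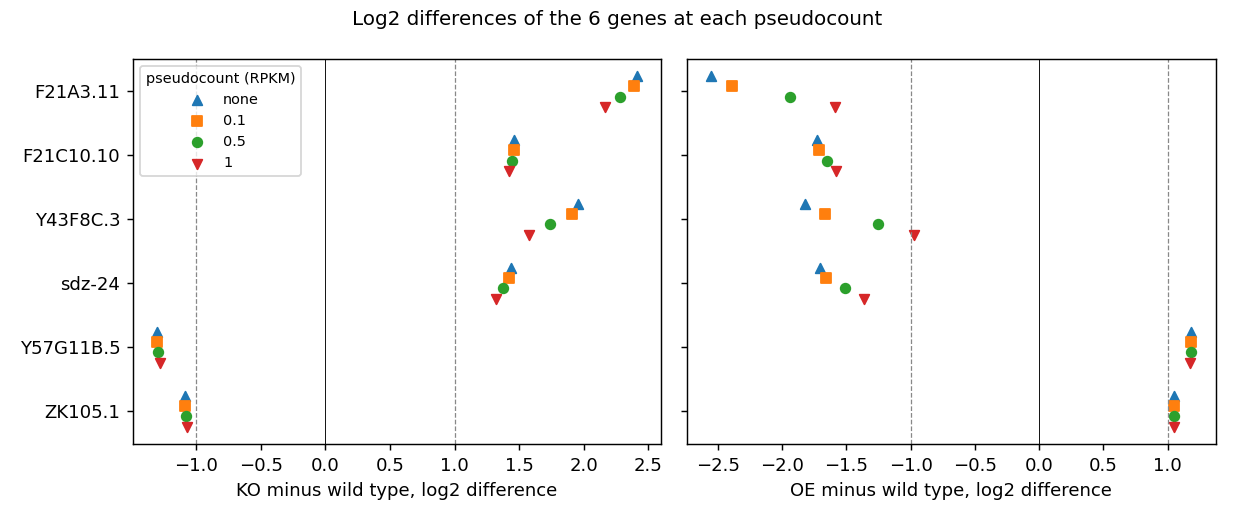
Log2 difference of the 6 genes from the wild type in KO (left) and OE (right) without a pseudocount and with 0.1, 0.5 and 1 RPKM added, where dashed lines mark 1 and -1. The OE difference of *F21A3.11* and *Y43F8C.3* shrinks as the pseudocount grows and that of *Y43F8C.3* reaches -0.97 at 1 RPKM, while *Y57G11B.5* and *ZK105.1* hardly move.

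The order of the 6 genes by level changed with genotype. RPKM is a level per length, so genes can be compared within a genotype as far as the lengths behind the values hold. In KO the order was *F21C10.10*, *ZK105.1*, *Y57G11B.5*, *F21A3.11*, *sdz-24* and *Y43F8C.3*, and the first 2 overlapped between libraries at means of 57.1 and 55.7 RPKM. That overlap depends on the length used for *F21C10.10*. With the same reads set to the annotated exon lengths, *F21C10.10* was at 74.8 and 78.2 RPKM in KO, as lowest and highest library. *ZK105.1* was then at 54.2 and 57.7 RPKM, with no overlap. This assumes that all reads counted lie within the present annotation. In OE and in the wild type it began with *ZK105.1*, *Y57G11B.5*, *F21C10.10* and *sdz-24*, followed by *F21A3.11* and *Y43F8C.3*. The last pair overlapped in OE, at means of 0.734 and 0.647 RPKM, and no neighbours overlapped in the wild type. The highest mean of the 6 was 6.64 times the lowest in KO, 379 times in OE and 53.4 times in the wild type. The levels of the 6 genes thus lay closest together in KO and farthest apart in OE. With the same reads set to annotated lengths these ratios were 9.66, 413 and 58.3. This difference in spread follows largely from the fold rule. The 2 genes with the highest wild-type levels were chosen as lower in KO and higher in OE, and the other 4 as the reverse.

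Profiles were compared over the 6 libraries as the distance between log2(RPKM + 0.5) values, each gene being centred on its wild-type mean. *F21C10.10* and *sdz-24* were at a distance of 0.296, which made *sdz-24* the nearest of all genes to *F21C10.10*. The nearest gene to *sdz-24* was *clec-67*, a C-type lectin gene, at 0.294, nearly tied with *F21C10.10*. That rank depends on the pseudocount, since *clec-67* had only 16 and 41 reads in the OE libraries. With no pseudocount its OE difference was -2.10, against -1.70 for *sdz-24* and -1.73 for *F21C10.10*. *Y57G11B.5* was nearest to *dod-23*, a gene known to respond to the insulin pathway factor DAF-16, at 0.440 and then to *ZK105.1* at 0.451. *ZK105.1* was nearest to *Y57G11B.5* and then to the glutathione S-transferase gene *gst-4* at 0.461. For *Y43F8C.3* the nearest were *tts-1* at 0.580 and *rips-1* at 0.701. This match also depends on the pseudocount. With none, the OE difference was -1.82 for *Y43F8C.3*, against -1.02 for *tts-1*, -0.95 for *rips-1* and -1.70 for *sdz-24*. *F21A3.11* had no close match, since its nearest genes were *col-150* at 1.29 and *F21C10.10* at 1.34. The median distance to the genes of the table was 2.04 to 3.53 for the 6. These distances include the differences that the rule used, and distances without a pseudocount were not computed.

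Outside the 6, the table holds 20 genes with a sequence name only, and they moved in both directions. Of these 20, limma called 8 higher and 9 lower in KO, and 12 higher and 8 lower in OE, with adjusted p-values below 0.05 over the 85 genes. Among all the genes of the table, 70.6% were called higher and 23.5% lower in KO, and 29.4% were called higher and 60.0% lower in OE. Those shares depend on the scaling of the libraries. With each library scaled to the median of the table's genes, 20 genes were higher and 27 lower in KO, against 60 and 20 with the deposited values, and 25 were higher and 27 lower in OE, against 25 and 51. That scaling shifts the median gene by -0.61 in KO and 0.38 in OE. It moves all genes together, so relative to the shift the differences of the 6 genes are by construction those above, but for the pseudocount (departures of at most 0.19). Without that correction *F21C10.10* and *sdz-24* were at 0.84 and 0.79 in KO, under the fold limit. The 20 genes had median absolute differences of 0.63 in KO and 0.63 in OE, against 0.68 and 0.64 over all 85 genes. None of them met the fold rule, which follows from how the list was made. The genes with a sequence name that met the rule are all among the 6 and were left out of it, which also lowers the medians of the 20 genes.

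The table also holds markers of other tissues. Its genes were selected for contrary KO and OE differences, so these markers had to differ and do not stand for their gene families. Over the whole table, 70.6% of genes were called higher in KO and 60.0% lower in OE. The 6 sperm genes of the table, 5 of them major sperm protein genes, summed to 1288 and 1328 RPKM in KO and to 417 and 489 RPKM in OE, against 636 and 806 RPKM in the wild type, as lowest and highest library. By limma all 6 were higher in KO and lower in OE. The 7 collagen genes, which build the cuticle, summed to 8018 to 8673 RPKM in KO and 4268 to 4567 RPKM in OE, against 5404 to 6024 RPKM in the wild type, and 7 were called higher in KO and 5 lower in OE. These counts depend on the scaling. With median scaling 1 of the 6 sperm genes was called higher in KO and 4 lower in OE, and all 6 kept their signs. Of the collagen genes 4 were then called higher in KO and 3 lower in OE, while 3 of the 7 had a negative difference in KO and 3 a positive one in OE. Sperm and cuticle genes change with developmental age, and their part in the values of the 6 genes was not tested. The only member of the stress list in the table, *gst-4*, had 16.7 and 18.1 RPKM in KO and 57 and 59.5 RPKM in OE, against 27.5 and 34.4 RPKM in the wild type. No oocyte or yolk gene of the fixed list is in the table, so that tissue was not analysed here.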

How the data were processed

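Reads from 6 polyA libraries were aligned by the authors to WBcel235 with TopHat2, and the submitters' processing notes also name FastQC 0.11.5 and DESeq2. Read counting per gene is not described there or in the methods. The deposited data are 1 table of RPKM values, computed by the authors, for 85 genes, 1 column per library, and columns were assigned to libraries by name. All 85 identifiers were matched to symbols. Library totals, gene lengths and reads were inferred from the steps between RPKM values, and each of the 510 values came out as whole reads (tolerance 1e-06 reads). The recovery was tested on simulated data. The totals are inferred, and their scale was checked against annotated lengths (median ratio 1.01). Single genes varied more, with ratios of 0.64 to 1.72, and 61 of the 85 genes were within 10% of the annotated length.

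The 6 genes were found by symbol, and log2(RPKM + 0.5) was taken. For the background, a model over the 6 libraries was made with limma 3.58.1 (R 4.3.3, lmFit with eBayes, two-sided, Benjamini-Hochberg over 85 genes, threshold 0.05). It gave every gene 1 pooled spread. The fit includes the 6 genes, but no test of theirs is reported, since these contrasts chose them. The members and lists were chosen with earlier results of these data known. The genes named are the 6, the 2 nearest profiles of each and the 2 genes on either side of the fold limit, with genes that the annotation places next to or over the 6; *hlh-11*, promoters and protein sequences were not analysed here. Libraries of a genotype differed by more than counting noise (chi-square per degree of freedom 10.4 to 19.9) and were kept as 2 replicates. Annotation was Ensembl release 115. Alternatives were other pseudocounts, a filter on low values, median scaling, leaving out each library, a replicate block, fewer groups in the fit and limma-trend. Voom on the recovered reads was added after the data were seen.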

Additional observations from a re-analysis of the deposited data

How the results depend on the processing

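The differences of the 6 genes kept their sign in all 108 alternative values that a setting could change. The genes were chosen for differences of at least 1, so a kept sign says little. The fold rule was less stable. With a pseudocount of 1 RPKM *Y43F8C.3* missed it, without either wild-type library *ZK105.1* missed it, and with median scaling *F21C10.10* and *sdz-24* missed it, at KO differences of 0.84 and 0.79. Without each library in turn, the KO difference of *ZK105.1* was -1.20 to -0.96 and its OE difference 0.93 to 1.17. The largest shift of any of the 6 differences on leaving out a library was 0.22. With voom on the recovered reads, a fit chosen after seeing the data, the OE differences of *F21A3.11* and *Y43F8C.3* were -2.54 and -1.80, and all 6 genes met the rule. Median scaling raised the table's genes past the fold rule to 20, against 13, and gave 20 genes higher in KO and 27 lower in OE, against 60 and 51. It assumes that the median gene is the same in every library, and most of these selected genes were higher in KO. Without 1 library in turn the genes lower in KO numbered 10 to 22, against 20, the 10 without KO replicate 1. The replicate number as a block gave 59 genes higher and 20 lower in KO and 25 higher and 48 lower in OE. Deviations of same-numbered libraries correlated at -0.14 to -0.11 across genes, and no source says that a number marks a shared batch, so the numbers were not taken as pairs. In the 2 lowest genes, *F21A3.11* and *Y43F8C.3*, 17 to 38 reads per OE library limit what can be said of the OE level.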
